A study of Mus musculus with 4 samples.

Results

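The genes described here encode chromatin remodelers and structural chromatin proteins. They were taken by symbol alone, from probe sets annotated to exactly 1 gene of the Smarca to Smarce, Chd, Ino80, Arid, Cbx, Nap1l, Hmga, Hmgb, Hmgn, Asf1, Chaf1 or Npm families. This gave 62 genes with 145 probe sets, out of 18193 genes with 34945 probe sets. Among them, Hmga2-ps1 is a transcribed pseudogene and Ino80dos a long noncoding RNA. Another 11 probe sets carried a matching symbol joined to other symbols and were left out. Cbx3 is therefore represented by 1 dim probe set, and Hmgb1, Hmgn2 and Chaf1a were not analysed here.

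The signals came from single-colour arrays of 4 mouse cell populations, 1 array each. Granulocytes, the mature neutrophil-type cells of bone marrow, were sorted by strong Gr-1 staining and high granularity, at 99.4% purity judged from stained cells. The remaining cells were enriched for c-Kit, freed of lineage-positive cells and divided by Sca-1 and CD34 into hematopoietic progenitor cells (HPC, Sca-1 negative), long-term repopulating stem cells (LT-HSC, Sca-1 positive and CD34 negative) and short-term repopulating stem cells (ST-HSC, positive for both). The labels give no strain, age, genotype or treatment. RNA of 50 to 200 cells of each type, handled inside empty zonae pellucidae, went through 2 rounds of linear amplification. The noise this adds was not measured.

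Remodelers use ATP to slide, eject or exchange nucleosomes, in families named after their motor proteins: SWI/SNF, ISWI, CHD and INO80. Chaperones of the Nap1, Asf1, CAF-1 and nucleophosmin kinds hand histones to and from DNA, and heterochromatin protein 1 (HP1) and Polycomb Cbx proteins read methylated histone tails. High mobility group (HMG) proteins bind DNA or nucleosomes directly. In the blood system, progenitors carry open chromatin and divide, whereas granulocytes stop dividing and condense their nuclei into lobes.

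The promoters of 6 selected members are shown, as the 250 bases before the start site (RefSeq, GRCm38.p6, 5′ to 3′ on the gene's strand). They are not the 6 largest differences: Npm1, Cbx6 and Chd7 differed more than some of them and are not shown. Cbx1 (chr11:96788885-96789134, plus strand), Asf1a (chr10:53596711-53596960, plus), Hmgn1 (chr16:96127726-96127975, minus) and Nap1l1 (chr10:111472977-111473226, plus) were much lower in granulocytes. Cbx8 (chr11:119040914-119041163, minus) was at least 2-fold higher there, and Hmgb2 (chr8:57511593-57511842, plus) was the brightest member there without reaching 2-fold. Capitals mark matches to 6 motifs searched on both strands with overlaps kept: CCAAT, TTTNNCGC (E2F type), CACGTG (E-box), CCGGAA (ETS type), TTTGAA (cell cycle homology region) and TTGCNNAA (C/EBP type).
Cbx1: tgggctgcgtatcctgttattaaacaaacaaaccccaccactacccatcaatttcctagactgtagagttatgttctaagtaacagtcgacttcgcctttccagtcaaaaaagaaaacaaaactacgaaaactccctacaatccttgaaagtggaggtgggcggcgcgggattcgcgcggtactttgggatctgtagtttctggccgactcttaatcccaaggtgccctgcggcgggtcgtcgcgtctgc
Asf1a: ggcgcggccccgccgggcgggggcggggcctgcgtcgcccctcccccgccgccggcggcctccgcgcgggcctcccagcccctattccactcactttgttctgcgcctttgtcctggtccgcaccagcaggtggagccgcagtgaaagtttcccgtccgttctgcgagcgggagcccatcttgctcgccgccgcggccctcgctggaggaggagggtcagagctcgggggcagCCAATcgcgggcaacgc
Hmgn1: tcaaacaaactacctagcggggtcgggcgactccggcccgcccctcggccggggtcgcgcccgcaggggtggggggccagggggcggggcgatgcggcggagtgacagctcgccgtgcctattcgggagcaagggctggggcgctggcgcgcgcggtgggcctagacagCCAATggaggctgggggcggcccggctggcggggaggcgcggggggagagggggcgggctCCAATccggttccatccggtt
Nap1l1: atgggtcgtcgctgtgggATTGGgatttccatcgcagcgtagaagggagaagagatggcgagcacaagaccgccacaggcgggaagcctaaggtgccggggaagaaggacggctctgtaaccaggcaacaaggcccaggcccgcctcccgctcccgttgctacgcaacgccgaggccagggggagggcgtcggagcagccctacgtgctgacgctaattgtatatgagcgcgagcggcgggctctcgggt
Cbx8: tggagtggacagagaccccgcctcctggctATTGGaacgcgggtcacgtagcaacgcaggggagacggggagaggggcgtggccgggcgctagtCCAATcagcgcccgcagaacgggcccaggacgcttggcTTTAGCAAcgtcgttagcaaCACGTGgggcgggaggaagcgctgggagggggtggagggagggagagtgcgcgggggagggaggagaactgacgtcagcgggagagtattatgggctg
Hmgb2: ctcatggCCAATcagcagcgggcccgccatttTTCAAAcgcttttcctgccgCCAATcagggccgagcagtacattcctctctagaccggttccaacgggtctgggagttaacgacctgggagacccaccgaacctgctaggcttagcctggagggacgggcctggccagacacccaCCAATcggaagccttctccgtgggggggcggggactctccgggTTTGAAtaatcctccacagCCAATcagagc

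Hmgb2 had 4 CCAAT and 2 TTTGAA matches, and the Cbx1 window had no match to any of the 6 motifs. The Cbx8 window held 2 CCAAT matches, 1 E-box and 1 C/EBP-type match. RefSeq windows were found for 46 of the 62 members, 56 windows in all. CCAAT stood in 39.3% of these windows and in 33.8% of the 32851 windows of all genes. The E2F-type letters stood in 8.93% against 4.28%, the ETS type in 17.9% against 12.0%, and the E-box in 7.14% against 6.02%. TTTGAA was in 12.5% of members' windows and 16.0% of all, and the C/EBP type in 10.7% and 9.56%. The members' windows were richer in G and C, at 62.2% against 53.2%. These are matches of letters and show no binding.

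Each signal is the linear intensity of a probe set. Those under a floor of 120.1, the median of all values, count as unmeasured and were raised to it ahead of the log2 step. A gene is represented by its brightest probe set. With 1 array per population no test was possible, so a gene was counted as higher or lower where it differed at least 2-fold, in 1 direction, from every array it was compared with, and the share of all 18193 genes counted the same way is given as background. Error could be read only from how far the probe sets of 1 gene lay apart. Among members the SD between probe sets of a gene, in log2 units, was 0.73 where granulocytes were compared (17 genes, 50 probe sets), 0.57 where HPC were (21 genes, 60 probe sets) and 0.53 between LT-HSC and ST-HSC (22 genes, 62 probe sets). Only probe sets above the floor on every array compared entered this SD. Disagreements that involve a signal under the floor, as for Smarcad1 in granulocytes, are therefore left out. The SD covers neither different sorts nor different amplifications.

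Of the 62 members, 41 lay above the floor on all 4 arrays and 6 on none. The median member signal was 493 in granulocytes and 1001, 1063 and 1095 on the HPC, LT-HSC and ST-HSC arrays, against 200 to 225 for all genes. Array medians over all probe sets ran from 114 to 132. The 11 granulocyte marker genes had a summed signal of 442992 in granulocytes and 1628, 23306 and 3062 on the HPC, LT-HSC and ST-HSC arrays, where LT-HSC had 4 of the 11 under the floor. The 9 measured stem and progenitor markers summed to 1001 in granulocytes and to 21418, 49615 and 39991 on the HPC, LT-HSC and ST-HSC arrays.

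**Figure D1:**
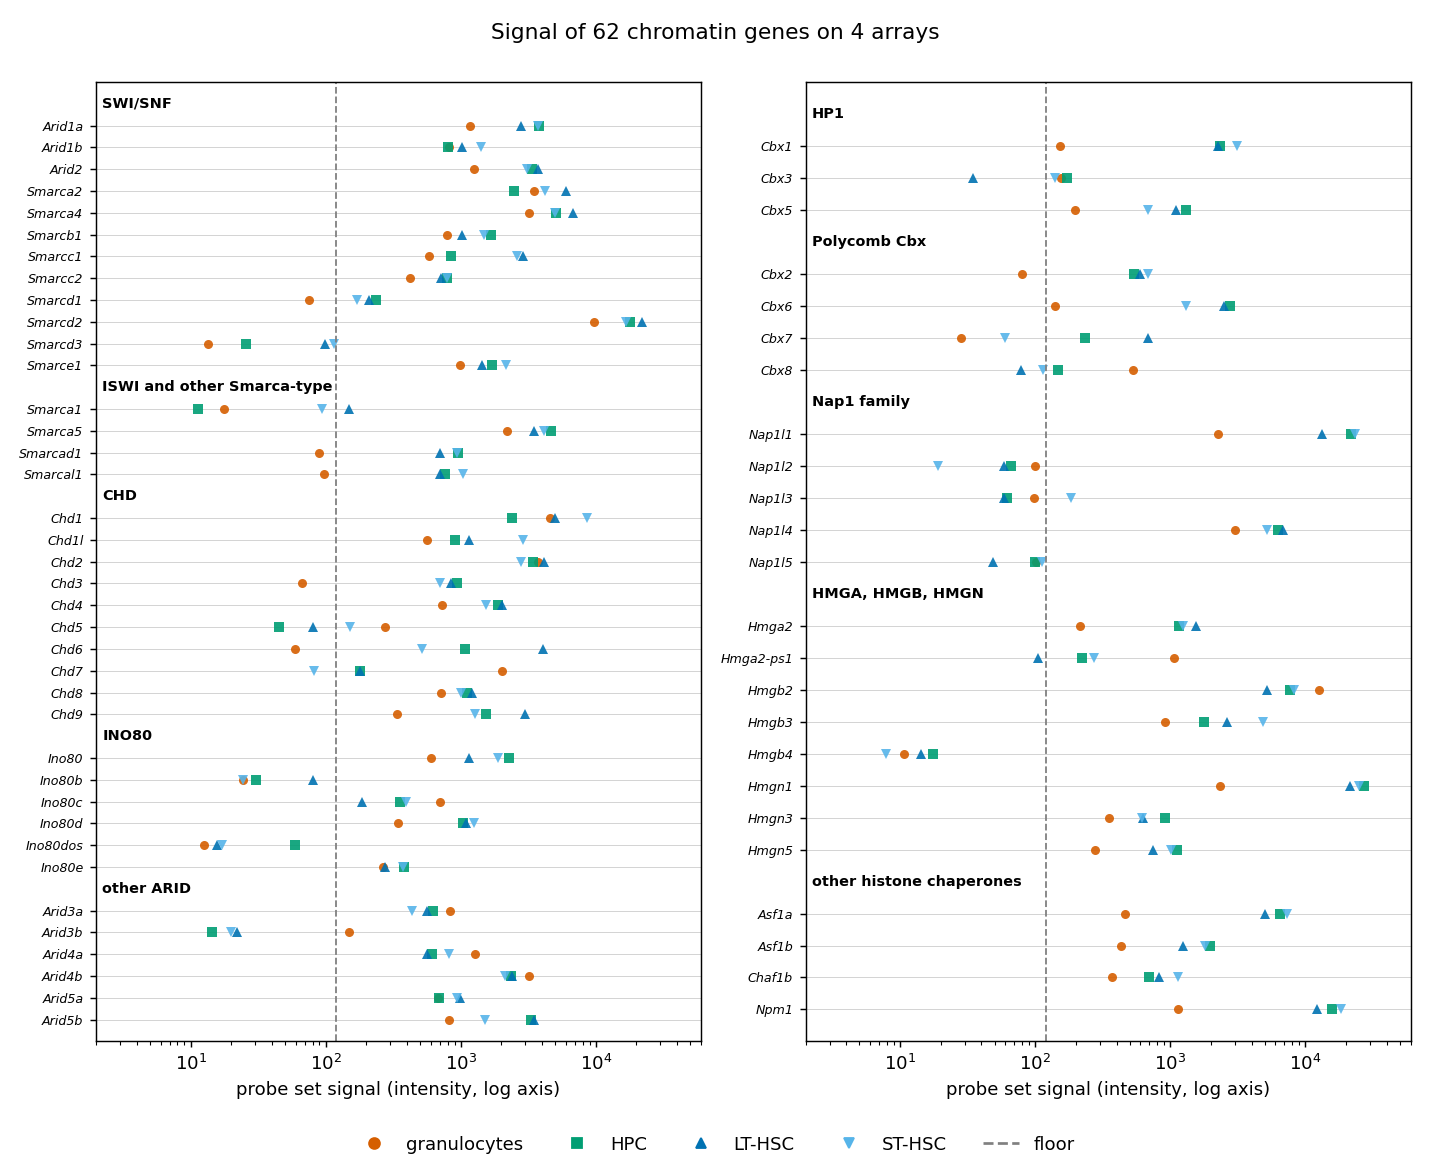
Signal of each of the 62 members on the 4 arrays (x axis, intensity on a log scale), 1 row per gene grouped by role, with the floor of 120.1 as a dashed line. Granulocytes (circles) lie left of the other arrays for Cbx1, Npm1 and Hmgn1 and right of them for Chd7, Cbx8 and Hmgb2.

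Granulocytes were set against HPC, LT-HSC and ST-HSC to describe the chromatin genes of a mature cell beside those of its ancestors. Of the 62 members, 20 (32.3%) were at least 2-fold lower in granulocytes than on each other array, against 12.7% of all genes. Only 3 members (4.84%) were at least 2-fold higher, against 8.90% of all genes. At 4-fold, 12 members (19.4%) were lower against 5.34% of all genes, and 1 (1.61%) was higher against 2.86%. The median member differed from the mean of the other arrays by −0.87 log2 units, and the median over all genes by 0. The lower side was led by Cbx1, Asf1a, Npm1, Cbx6 and Hmgn1, each at least 9-fold lower, and the higher side by Chd7.

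Members were brighter than most genes, and bright genes differed more often. Among the 8742 genes whose mean log2 signal reached that of 2 times the floor, 26.4% were lower in granulocytes and 12.3% higher, against 41.7% and 4.17% of the 48 members that bright. The medians there were −1.33 for members and −0.37 for all. Against single arrays, granulocytes had 26 members (41.9%) at least 2-fold lower and 5 (8.06%) higher than HPC, where 19.2% and 13.3% of all genes were. Against LT-HSC 29 (46.8%) were lower and 7 (11.3%) higher, with 19.9% and 13.9% of all genes. Against ST-HSC 26 (41.9%) were lower and 3 (4.84%) higher, with 19.3% and 14.4%. These 3 comparisons share the granulocyte array.

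The count of lower members was 13 (21%) with the floor at the 75th percentile, against 7.17% of all genes. It was 13 when each gene was given the median of its probe sets, against 1560 of all 18193 genes. After scaling to the hybridization controls it was 32 (51.6%), against 16.7% of all genes. Lower genes made up 58.9% of all genes counted on either side, 47.6% once arrays shared a 75th percentile and 77.2% after the control scaling. For members these shares were 87.0%, 78.3% and 91.4%. The median of the 8742 brighter genes, −0.37, became −0.13 and −0.83 under these scalings, while that of all genes stayed within 0.05 of 0. In bulk RNA, fewer cells of a type and less RNA per cell cannot be told apart. The genes of dividing cells were lower too: 12 of 14 measured cycling markers were at least 2-fold lower in granulocytes, with a summed signal of 15749 against 80498 to 119419 on the other arrays. The part of cell division in the members' differences was not tested.

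**Figure D2:**
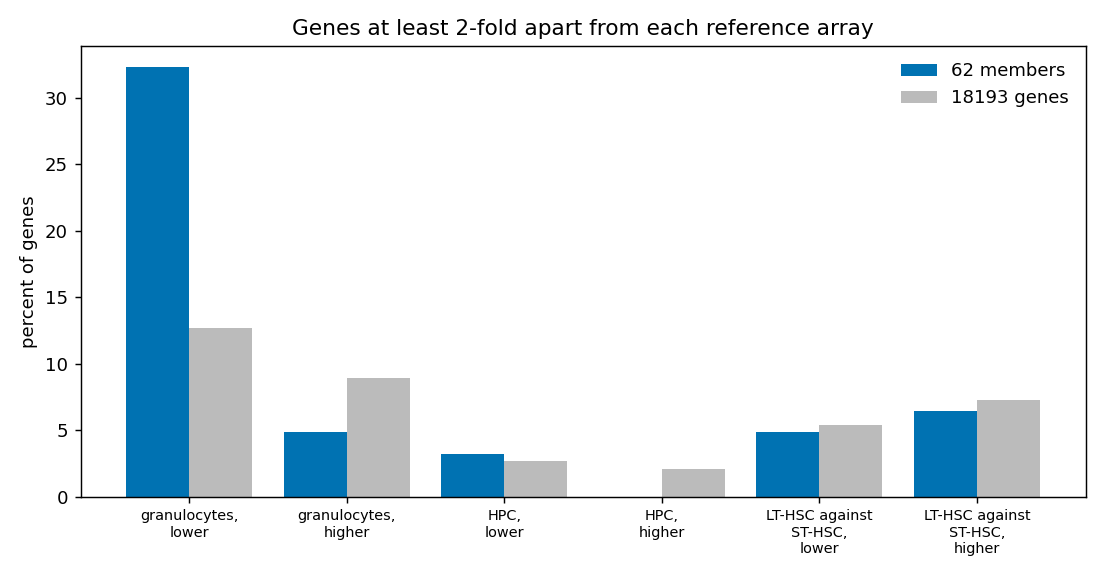
Percent of the 62 members and of all 18193 genes at least 2-fold apart from every reference array, for each comparison and direction (bars start at 0). Members exceed the background for lower signals in granulocytes (32.3% against 12.7%) and lie below it for higher ones (4.84% against 8.90%).

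The SWI/SNF complex opens promoters and enhancers. Of its 12 genes, 2 were at least 2-fold lower in granulocytes and none higher, with a median difference of −0.81. Arid1a, the DNA-binding subunit of the BAF form, had a signal of 1174 in granulocytes and 3816, 2782 and 3722 on the HPC, LT-HSC and ST-HSC arrays. That is 2.37-fold lower than the nearest array. Arid2, the matching subunit of the PBAF form, had 1258 in granulocytes and 3353, 3732 and 3102 elsewhere, 2.47-fold lower. Both calls rested on the probe set: another Arid2 probe set had 2768 in granulocytes and 1154 to 1331 elsewhere, and a second Arid1a probe set had 253 against 107 to 178. With the median over probe sets the smallest log2 differences were −0.16 for Arid1a and −0.17 for Arid2, and with a common 75th percentile Arid1a had −0.91.

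The motor subunits of the complex stayed close. Smarca4 (BRG1) had 3214 in granulocytes and 5007 to 6822 elsewhere, and Smarca2 (BRM) had 3483 in granulocytes and 2494, 5991 and 4176 on the HPC, LT-HSC and ST-HSC arrays. Smarcd2, a subunit needed for granulocyte development, was the brightest gene of the group on every array, at 9756 in granulocytes and 17770, 22100 and 16688 elsewhere. It was lowest in granulocytes, within 2-fold of HPC and ST-HSC but 2.27-fold below LT-HSC. Its 2 other probe sets were not lowest there, with 929 against 588 to 919 and 1657 against 1460 to 2045. After scaling to the hybridization controls its smallest log2 difference was −1.04. Smarcb1, Smarcc1, Smarcc2, Smarcd1 and Smarce1 were likewise lowest in granulocytes and within 2-fold of another array. Other probe sets were more than 2-fold lower there: Smarce1 had 524 against 1610 to 2296, and Smarcc1 267 against 1018 to 1483. A further Smarcc1 probe set was higher, at 240 against 29.0 to 121. With the median over probe sets the smallest log2 differences were −1.46 for Smarce1 and −0.34 for Smarcc1. Arid1b, at 818, lay inside the range of the others (800 to 1418), and Smarcd3 was under the floor on all arrays.

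Of the 4 ISWI and other Smarca-type helicases, 2 were at least 4-fold lower in granulocytes. Smarcal1, which rewinds DNA at stalled replication forks, had 97.1 in granulocytes, under the floor, and 769, 704 and 1044 on the HPC, LT-HSC and ST-HSC arrays. It was at least 5.86-fold lower. Smarcad1, a remodeler of replicated chromatin, had 89.4 in granulocytes and 957, 702 and 935 elsewhere, at least 5.85-fold lower. Its other probe set went the other way, with 673 in granulocytes and 294, 403 and 778 elsewhere, and a floor at the 25th percentile selected that probe set. With the floor at the 75th percentile the smallest log2 differences were −0.71 for Smarcal1 and −0.70 for Smarcad1, and the median over probe sets gave −0.90 for Smarcad1, all under 2-fold. Smarca1 was above the floor in LT-HSC alone (149). Smarca5, the common ISWI motor, was the brightest of the group and within 2-fold of ST-HSC and LT-HSC, at 2211 in granulocytes and 4631, 3492 and 4165 on the HPC, LT-HSC and ST-HSC arrays.

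The CHD family divided. Chd7, the remodeler mutated in CHARGE syndrome, had 2031 in granulocytes and 179, 180 and 82.6 on the HPC, LT-HSC and ST-HSC arrays. It was 11.3-fold higher than the nearest array, and its second probe set gave 859 in granulocytes and 6.8 to 29.7 elsewhere. The related Chd6 and Chd9 went the other way. Chd6 had 59.2 in granulocytes, under the floor, and 1074, 4057 and 517 elsewhere, at least 4.30-fold lower, but the higher floor at the 75th percentile left −0.26 log2 units. Chd9 had 338 in granulocytes and 1539, 3003 and 1283 elsewhere, 3.80-fold lower, but its other probe sets differed by little (log2 differences of −0.20 and −0.07 against the mean), and with the median over them Chd9 was not apart (0).

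Chd3 and Chd4 are motors of the NuRD complex, which couples remodeling to histone deacetylation. Chd3 had 66.6 in granulocytes and 935, 852 and 701 on the HPC, LT-HSC and ST-HSC arrays, at least 5.84-fold lower, from its only probe set. With the floor at the 75th percentile the smallest log2 difference was −0.70. Chd4 had 728 in granulocytes and 1887, 2007 and 1543 elsewhere, 2.12-fold lower. With the median over its probe sets granulocytes lay inside the range of the other arrays, 1.28 log2 units above their mean, and after scaling to a common 75th percentile the smallest difference was −0.86. Chd1, which reads active promoters, and Chd2 were the brightest of the family in granulocytes, at 4551 and 3754, and lay inside the range of the other arrays (2414 to 8651 and 2781 to 4099). Chd8 had 710 against 1001 to 1211, within 2-fold. Another Chd8 probe set went the other way, with 610 in granulocytes and 49.0 to 298 elsewhere. With the median over its probe sets granulocytes were highest, by 0.52 log2 units over the nearest array. Chd5 was dim but highest in granulocytes, at 274 against 45.0 to 151.

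**Figure D3:**
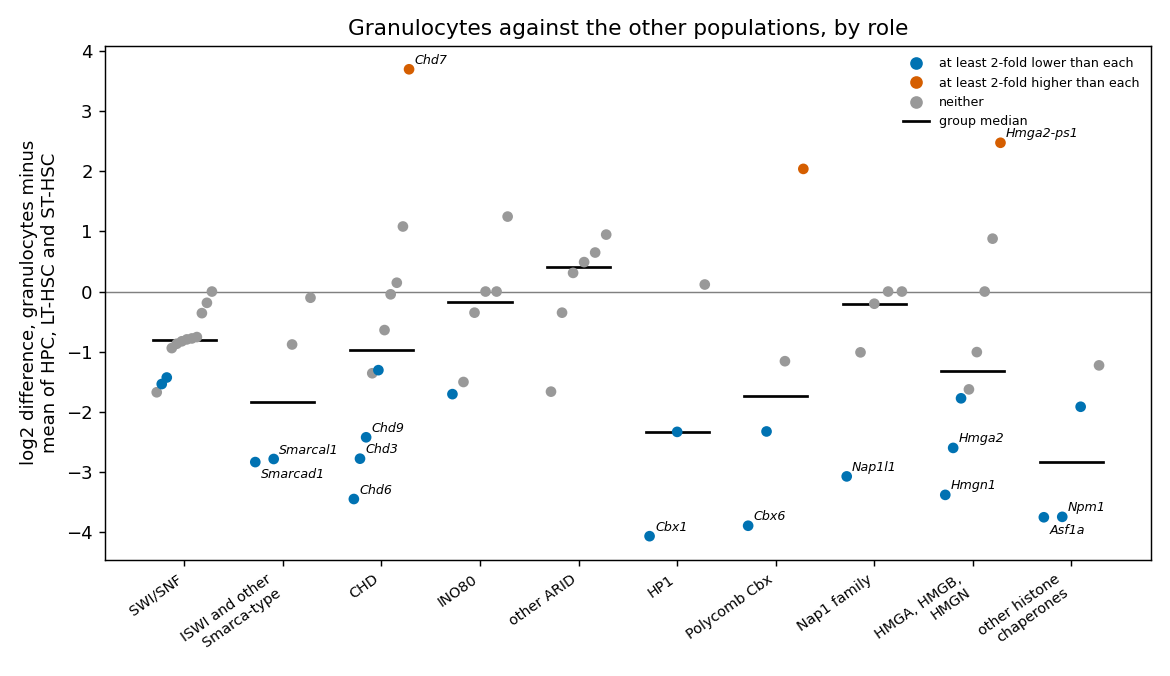
Log2 difference of each member between granulocytes and the mean of HPC, LT-HSC and ST-HSC (y axis), by role group (x axis), with group medians as black bars. Blue points are at least 2-fold lower and orange points at least 2-fold higher than every other array; the 3 orange points are Chd7, Hmga2-ps1 and the unlabelled Cbx8.

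INO80 exchanges histone variants. Among 6 INO80 genes, 1 was lower and none higher, with a median of −0.18. Ino80d had 346 in granulocytes and 1045, 1098 and 1246 on the HPC, LT-HSC and ST-HSC arrays, 3.02-fold lower than the nearest. With the median over its probe sets granulocytes were instead the highest array, by 0.82 log2 units over the nearest and 1.10 over the mean. The motor gene Ino80 had 599 in granulocytes and 2262, 1156 and 1874 elsewhere. Ino80c was highest in granulocytes, at 700 against 186 to 390, which is under 2-fold from ST-HSC. Ino80e had 265 against 273 to 379, and Ino80b and Ino80dos were under the floor. None of the 6 other ARID genes, DNA-binding factors outside SWI/SNF, was 2-fold apart, and their median was 0.40, the only group median above 0. After scaling to the hybridization controls that median was −0.02. Arid4a had 1265 in granulocytes and 608, 564 and 824 elsewhere, and Arid4b, the brightest of the group in granulocytes, had 3213 against 2130 to 2382. Arid3a had 839 against 439 to 618, and Arid3b was above the floor in granulocytes alone (149). Arid5a had 674 against 689 to 991. Arid5b was lower instead, at 816 against 3303, 3483 and 1503, but this rested on the probe set. Another Arid5b probe set had 349 in granulocytes and 140 to 199 elsewhere. With the median over its probe sets granulocytes were the highest array, by 0.81 log2 units over the nearest.

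HP1 proteins bind histone H3 methylated at lysine 9 in heterochromatin. Of their 3 genes, 2 were at least 2-fold lower in granulocytes. Cbx1 (HP1 beta) had 153 in granulocytes and 2344, 2270 and 3143 on the HPC, LT-HSC and ST-HSC arrays. This was 14.9-fold lower, from a granulocyte signal just above the brightest Bacillus control probe set of that array (138). The smallest log2 difference of Cbx1 was −3.89, −2.40 with the floor at the 75th percentile and −0.83, under 2-fold, with the median over probe sets. The 4 further Cbx1 probe sets were lower in granulocytes too, against the mean over the other cells. Cbx5 (HP1 alpha) had 198 in granulocytes and 1312, 1095 and 687 elsewhere, 3.47-fold lower. That call was lost with the floor at the 75th percentile (−0.67 log2 units) and with the median over probe sets (−0.78). Another Cbx5 probe set went the other way, with 171 in granulocytes and 16.2 to 51.5 elsewhere. Those with 144 and 381 in granulocytes were lower there against the mean of the other arrays. The single Cbx3 probe set had 155 in granulocytes and 173, 34.6 and 141 elsewhere, near the floor.

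Polycomb Cbx proteins read methylated lysine 27 in the repressive complex PRC1, and their genes differed in both directions. Cbx6 had 140 in granulocytes and 2754, 2492 and 1301 on the HPC, LT-HSC and ST-HSC arrays, 9.31-fold lower, again from a granulocyte signal close to those controls. Cbx2 had 79.7 in granulocytes and 536, 600 and 679 elsewhere, at least 4.46-fold lower. Cbx8 was higher, with 527 in granulocytes and 146, 79.1 and 114 elsewhere, 3.60-fold. A floor at the 75th percentile left smallest log2 differences of −0.31 for Cbx2 and 0.29 for Cbx8, both under 2-fold. Cbx7 was under the floor in granulocytes (28.1) and in ST-HSC (59.5).

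Histone chaperones outside the Nap1 family were the group with the lowest median, at −2.83 over Asf1a, Asf1b, Chaf1b and Npm1. Npm1 (nucleophosmin), an abundant nucleolar chaperone, had 1133 in granulocytes and 15617, 12244 and 18310 on the HPC, LT-HSC and ST-HSC arrays, 10.8-fold lower. Its second probe set had 345 against 2735 to 7733. Asf1a, which carries histones H3 and H4, had 460 in granulocytes and 6474, 5014 and 7326 elsewhere, 10.9-fold lower. The other Asf1a probe set was dim, at 148 against 26.8 to 43.2. Asf1b, the form tied to dividing cells, had 435 in granulocytes and 1953, 1249 and 1803 elsewhere, 2.87-fold lower. Chaf1b, a subunit of the replication-coupled chaperone CAF-1, had 372 against 693, 828 and 1146 and was within 2-fold of HPC.

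Of 5 Nap1 genes, chaperones of histones H2A and H2B, 3 lay above the floor on any array. Nap1l1 had 2241 in granulocytes and 21605, 13206 and 23474 on the HPC, LT-HSC and ST-HSC arrays, 5.89-fold lower. All 7 of its probe sets were lower in granulocytes, with signals of 329 to 2241 there. Nap1l2 and Nap1l5 were under the floor everywhere, and Nap1l3 was above it in ST-HSC alone (183). Nap1l4 had 3014 in granulocytes and 6316, 6867 and 5160 elsewhere, within 2-fold of ST-HSC.

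The HMG genes also lay on both sides. Hmgn1, which loosens nucleosome arrays, was the brightest member in HPC and ST-HSC. It had 2342 in granulocytes and 26974, 21546 and 24910 on the HPC, LT-HSC and ST-HSC arrays, 9.20-fold lower. Hmga2, an architectural protein known from fetal stem cells, had 216 in granulocytes and 1156, 1559 and 1235 elsewhere, 5.36-fold lower. Hmgn5 had 277 against 1122, 742 and 1020, 2.68-fold lower, but −0.78 log2 units with the floor at the 75th percentile. Hmgn3 had 352 against 917, 626 and 613, within 2-fold of LT-HSC and ST-HSC but 2.61-fold below HPC. Hmgb4 was under the floor on all arrays. Hmgb3 was lowest in granulocytes, at 918 against 1779, 2646 and 4834, but within 2-fold of HPC.

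Hmgb2, which bends DNA, was the brightest member in granulocytes, at 12694 against 7685, 5195 and 8235 on the HPC, LT-HSC and ST-HSC arrays. That was 1.54-fold above ST-HSC and so not counted, while without the probe sets that the array marks as shared (_x_at and _s_at) its log2 difference was 1.11, and after scaling to the hybridization controls 0.10. All 3 Hmgb2 probe sets were highest in granulocytes. The pseudogene Hmga2-ps1 had 1070 in granulocytes and 220, 105 and 271 elsewhere, 3.95-fold higher, against the direction of Hmga2 itself.

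Several probe sets per gene gave the only repeat measurement. Of the 145 probe sets, 36, belonging to 22 genes, were at least 2-fold lower in granulocytes than each other array (24.8%), against 9.69% of all 34945 probe sets. Another 7 (4.83%), belonging to 6 genes, were higher, against 8.14%. Among the 20 lower members, 7 had all their other measured probe sets on the same side, 8 had 1 or more on the opposite side, and the rest had no second measurement. The 8 were Arid1a, Arid2, Asf1a, Cbx5, Chd4, Hmgn1, Ino80d and Smarcad1. For Hmgn1 the opposed probe set was dim (96.2 to 167, with 15.5 in LT-HSC), and its 3 bright ones were lower in granulocytes. Control probe sets of Actb gave a ratio of 3′ to 5′ signal of 5.75 in granulocytes and 12.2 to 16.1 on the other arrays. Those of Gapdh gave 12.4 in granulocytes and 17.8, 14.9 and 12.4 on the HPC, LT-HSC and ST-HSC arrays, and did not set granulocytes apart. The part of 3′ bias in these disagreements was not tested.

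**Figure D4:**
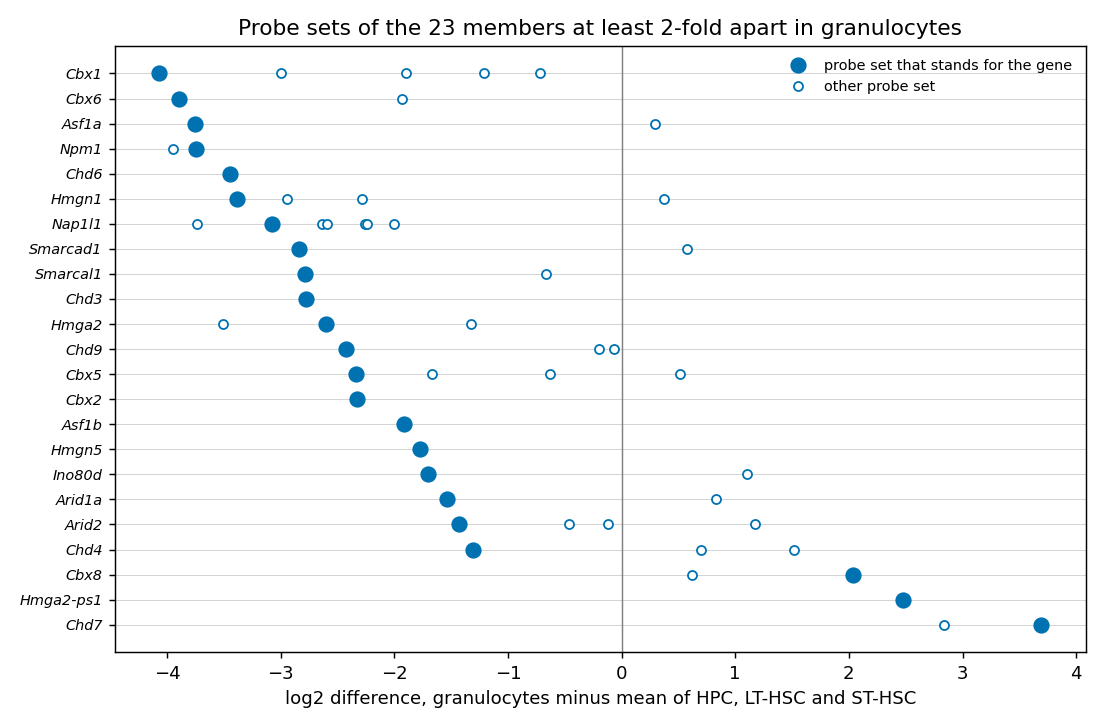
Log2 difference between granulocytes and the mean of the other arrays (x axis) for each probe set of the 23 members counted as higher or lower, with probe sets under the floor on all arrays left out. Filled points stand for the gene; Nap1l1 and Cbx1 have all points below 0, and Arid2, Chd4 and Ino80d have points on both sides.

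The HPC array was set against both stem cell arrays to find members that separate progenitors from stem cells. Few did: 2 members (3.23%) were at least 2-fold lower in HPC than on both stem cell arrays, against 2.69% of all genes, and none was higher, against 2.12%. At 4-fold no member was lower or higher, against 0.346% and 0.275% of all genes. The members' median difference was 0.01. This is near the background and sets the members apart in neither direction.

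Smarcc1, a scaffold subunit of SWI/SNF, had 851 in HPC and 2882 and 2627 in LT-HSC and ST-HSC, 3.09-fold lower. Another of its probe sets had 1483 in HPC and 1139 and 1018 in the stem cells, the opposite direction. Chd1 had 2414 in HPC and 4966 and 8651 in LT-HSC and ST-HSC, 2.06-fold lower. Another Chd1 probe set had 308 in HPC and 208 and 151 in the stem cells, the opposite direction. The smallest log2 difference of Chd1 was −0.84 and −0.90 under the other scalings and −0.07 with the median over probe sets, which gave −0.13 for Smarcc1. With the median over probe sets, Cbx1 and Cbx5 were at least 2-fold higher in HPC. The 4 myeloid progenitor markers summed to 61524, 3591 and 21989 on the HPC, LT-HSC and ST-HSC arrays.

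LT-HSC were compared with ST-HSC, the most and the less durable of the stem cell gates. Higher in LT-HSC were 4 members (6.45%), against 7.28% of all genes, and lower were 3 (4.84%), against 5.41%. At 4-fold, 2 were higher (3.23% against 1.29%) and none lower (background 0.693%). The median difference was 0, the same as over all genes. These shares are near the background.

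Chd6 had 4057 in LT-HSC and 517 in ST-HSC, 7.85-fold higher, with HPC between them at 1074. Its relative Chd9 had 3003 and 1283, 2.34-fold higher. Cbx7, a Polycomb reader known for its part in stem cell self-renewal, had 689 in LT-HSC, 59.5 in ST-HSC, under the floor, and 233 in HPC. It was at least 5.74-fold higher, but a second Cbx7 probe set had 142 in LT-HSC and 187 in ST-HSC. Arid5b had 3483 and 1503, 2.32-fold higher. With the median over probe sets the log2 differences were 0.28 for Arid5b, 0.59 for Chd9 and 0.24 for Cbx7, all under 2-fold. A floor at the 75th percentile left 0.68 for Cbx7, and at the 25th percentile it was −0.40.

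On the lower side, Chd1l, a remodeler recruited to damaged DNA, had 1151 in LT-HSC and 2900 in ST-HSC, 2.52-fold lower. Ino80c had 186 and 390, 2.10-fold lower. Hmga2-ps1 had 105, under the floor, and 271, at least 2.25-fold lower. Each of these 3 rests on 1 probe set. With the floor at the 75th percentile Ino80c and Hmga2-ps1 had a difference of 0, and after scaling to the hybridization controls Ino80c had −0.86 log2 units. The chaperone genes Asf1a, Asf1b, Chaf1b and Npm1 were lower in LT-HSC by 0.47 to 0.58 log2 units, near the SD between probe sets. The second Npm1 probe set was further apart, with 2735 in LT-HSC and 7115 in ST-HSC (−1.38 log2 units). Of the Nap1 chaperones, Nap1l1 was lower in LT-HSC (−0.83) and Nap1l4 higher (0.41).

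The LT-HSC array also differed from ST-HSC in transcripts of other cells. Of 11 granulocyte markers, 6 were at least 4-fold higher in LT-HSC, such as S100a8 at 6783 against 145. In the other direction, 1 was at least 4-fold lower, Csf3r at 551 against 2404. Mmp9 was under the floor in LT-HSC (65.8) and had 170 in ST-HSC. Mmp8, Cxcr2 and Itgam were under the floor on both arrays. Of 7 B-lineage markers, 4 were at least 4-fold higher in LT-HSC than in ST-HSC. Their summed signal over all 7 was 14076 against 611, and Vpreb1 had 4815 against 15.0. The HPC array carried them too, with a sum of 6804 and Vpreb1 at 2532. In granulocytes themselves, of the 4 members higher in LT-HSC, Chd6 (59.2) and Cbx7 (28.1) were under the floor. Arid5b (816) and Chd9 (338) were above it, as was a second Cbx7 probe set (164). The part of granulocyte or B-lineage transcripts in the members' LT-HSC values was not tested.

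**Figure D5:**
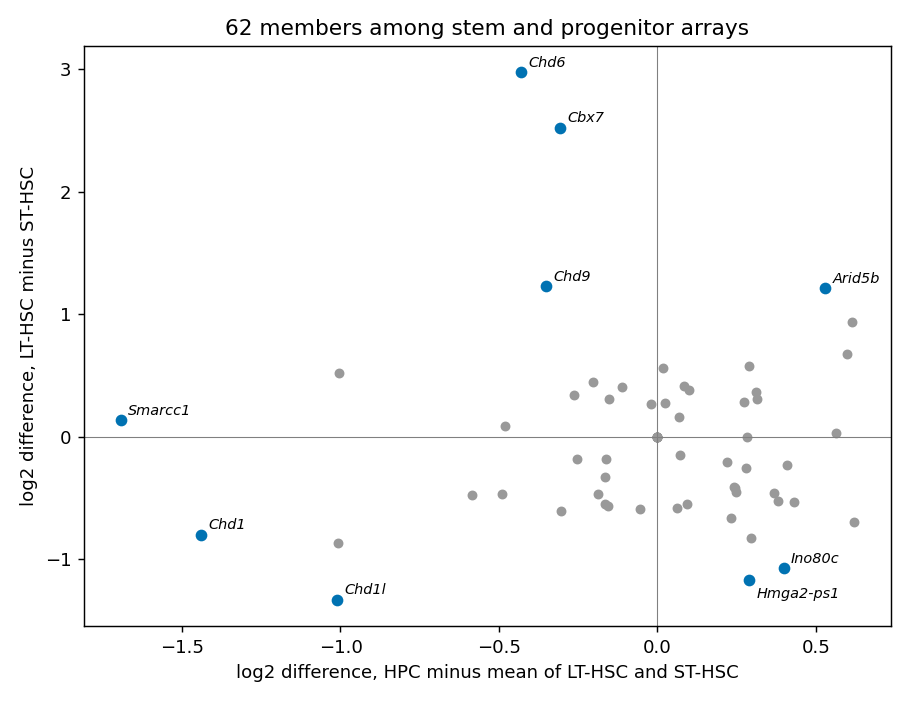
Log2 difference of the 62 members between HPC and the mean of both stem cell arrays (x axis) and between LT-HSC and ST-HSC (y axis). Most members lie near the origin; the 9 labelled genes differ at least 2-fold in 1 of the comparisons, with Chd6 and Cbx7 highest in LT-HSC and Smarcc1 and Chd1 lowest in HPC.

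Chromatin genes that the family names do not cover were counted for comparison. They are partners in the same complexes, other remodelers and chaperones, heterochromatin and architecture genes, and variant histones. Of 88 measured genes, 25 (28.4%) were at least 2-fold lower in granulocytes and 5 (5.68%) higher, against 12.7% and 8.90% of all genes, and the median difference was −0.58. Of these 88 genes, 86 were above the floor on at least 1 array. Among the 8742 brighter genes, 26.4% were lower and 12.3% higher, so the lower share was close to that of bright genes. The brighter ones of the 88 were not counted apart. Hells, a remodeler of the SNF2 family needed for DNA methylation, had 6.5 in granulocytes and 1666 to 2210 elsewhere. Actl6a, an actin-like subunit of SWI/SNF and INO80, had 109 against 2476 to 3622, and the NuRD deacetylase gene Hdac2 had 209 against 3806 to 6442. The chaperone gene Set had 889 against 8800 to 10610. Of the 5 higher genes, 2 were from the heterochromatin and architecture list. Lmnb1, a nuclear lamina gene, had 10727 in granulocytes and 713 to 1388 elsewhere. Lbr, the lamin B receptor that binds HP1 and shapes lobed nuclei, had 22338 against 7833 to 10344. The others were Dpf3, Mbd2 and Znhit1. In the HPC comparison 1 of these 88 genes (1.14%) was lower and 3 (3.41%) higher, against 2.69% and 2.12% of all genes. Between LT-HSC and ST-HSC 3 (3.41%) were lower and 7 (7.95%) higher in LT-HSC, against 5.41% and 7.28%. These shares are near the background.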

How the data were processed

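Per the labels' protocols, RNA of sorted mouse cells was amplified in 2 rounds and hybridised to single-colour Affymetrix arrays, 1 per population. The authors deposited 1 linear intensity per probe set and array. The software behind it is not given in the sources used here, nor are detection calls. A trimmed mean (2% off each end) was 500.00 on every array, and no further scaling was applied. The 64 control probe sets among 45101 were left out. Names came from GEO's platform annotation, where 34945 probe sets had 1 symbol, 932 several and 9160 none. All 62 members were found in RefSeq (GRCm38.p6) by Entrez number with the same symbol.

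Signals under the median of all values (120.1) were set to it. A gene was represented by whichever probe set had the highest mean of log2 signals. A fold is the smallest over the reference arrays, and "at least" means the low side was under the floor. No tests were possible with 1 array per group, and the number of arrays limits precision. The text names every member at least 4-fold apart, up to 3 further members each way per role group, the brightest of each group and those moving against it. The members, lists and rules were chosen with earlier results of these data known. The 8 alternatives were 2 floors, 2 scalings, 2 choices of probe set, dim genes left out and a 4-fold threshold. Python 3.11.15, numpy 2.4.6, pandas 2.3.3 and matplotlib 3.10.9 were used, and the counting was tested on simulated data.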

Additional observations from a re-analysis of the deposited data

How the results depend on the processing

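The 20 members lower in granulocytes became 13 with the floor at the 75th percentile, 13 with the median over probe sets, 32 after scaling to the hybridization controls and 12 at 4-fold. The share of all genes, 12.7%, became 7.17% with that floor, 16.7% after the control scaling and 5.34% at 4-fold. With the median it was 1560 of 18193 genes. The 3 higher members became 5 once arrays shared a 75th percentile (11.8% of all genes) and 1 at 4-fold (2.86% of all genes). Lower members made up 87.0% of those counted, 78.3% under the 75th percentile scaling and 91.4% under the control scaling, against 58.9%, 47.6% and 77.2% for all genes. The 2 members lower in HPC became 4 with the floor at the 25th percentile, 1 under each of both scalings, and 0 with the median over probe sets or at 4-fold. Of all genes, 5.32% were lower with that floor, 2.12% and 1.96% under the 75th percentile and control scalings, and 0.346% at 4-fold. The count higher in HPC, 0, became 2 with the median over probe sets, where 263 of all genes were higher and 347 lower. The 3 members lower in LT-HSC became 1 with the higher floor, 6 with the lower floor and 0 at 4-fold, against 2.74%, 11.3% and 0.693% of all genes. The 4 higher ones became 2 at 4-fold, against 1.29% of all genes. The other counts stayed within 1.5 times. The median member difference for granulocytes ran from −1.33 to −0.36. Of 32 single differences of at least 2-fold, 11 stayed so under every alternative that gave a value, and 4 turned in sign. For these the difference is given against the mean over the arrays compared: −0.40 for Cbx7 (LT-HSC against ST-HSC) and 0.58 for Smarcad1 (granulocytes) with the floor at the 25th percentile, and 1.28 for Chd4 and 1.10 for Ino80d (both granulocytes) with the median over probe sets. The smallest difference over the arrays was 0 for Smarcad1 and Chd4, which lay inside the range of the others, and 0.82 for Ino80d. Another probe set stood for the gene in these cases, or entered its median. No paired analysis was possible because each population had 1 array.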

Other observations

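Some probe sets of the remodelers were bright on the granulocyte and LT-HSC arrays together. They were picked after their values were seen. A Chd4 probe set that does not represent the gene had 857 in granulocytes and 959 in LT-HSC, against 234 in HPC and 15.4 in ST-HSC, and a second had 263 and 294 against 15.8 and 21.9. A Chd2 probe set had 1716 in granulocytes and 1780 in LT-HSC, against 626 and 540 in HPC and ST-HSC. Being at least 2-fold higher on both these arrays than on both others held for these 3 of 145 member probe sets (2.07%) and for 298 of 34945 in all (0.853%). The 5′ control probe set of 18S ribosomal RNA was also highest on these arrays, at 16644 in LT-HSC and 4677 in granulocytes, against 1333 in ST-HSC and 508 in HPC. Its part in the Chd4 and Chd2 signals was not tested.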
